A study of Mus musculus with 4 samples.

Results

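The genes described here are 41 genes of the vacuolar proton pump (V-ATPase) and the lysosome, chosen by gene name from a count table of 55450 genes. No name was repeated in the table, and all 41 passed the filter on low counts together with 16269 genes in all. The list was drawn up with the change of these genes between loaded and unloaded cells already known, so their values are given as a description and not as independent support for a direction. It holds 16 pump genes (6 of the V0 domain, 8 of the V1 domain and 2 accessory subunits), 14 hydrolases (7 proteases and 7 glycosidases or ceramidases), 8 membrane and lipid-handling proteins and 3 genes of the TFEB family (*Tfeb*, *Tfe3* and *Mitf*).

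RNA-seq was performed on MLO-Y4 cells, an osteocyte-like line from mouse long bone with the genotype given as WT, in 2 unloaded and 2 loaded libraries. The loaded cells grew on UniFlex plates, whose wells have a silicone membrane coated with type I collagen, and underwent 12 h of cyclic stretch (0.5 Hz, 20% strain). The unloaded cells grew on Corning plates and stood for 12 h in the incubator of the loading system, so plate type and stretch cannot be told apart. All cells came from 1 line, and nothing in the labels says that the libraries came from separate cultures. The p-values therefore measure the spread between these libraries, which may be technical. An exact permutation test of 2 against 2 libraries cannot give a two-sided p below 0.333, so the tests below come from a model fitted across all genes.

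The V-ATPase is a rotary pump. Its V1 domain, which faces the cytosol, splits ATP, and its V0 domain in the membrane carries protons into the lysosome. The acid keeps the hydrolases active, and the mTORC1 and Rag proteins on the lysosome surface hold the transcription factors TFEB, TFE3 and MITF in the cytosol while nutrients are plentiful. When released into the nucleus, these factors bind E-box sites in the promoters of pump and lysosome genes, so the TFEB family can act with no change in its own mRNA. Osteocytes can acidify and resorb the matrix around them, a use of the pump that they share with osteoclasts.

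Promoter sequences from the RefSeq table of GRCm38.p6 were searched for the site that the TFEB family is known to bind. The stretches below are the 250 bases before the start of transcription in that table, given 5′ to 3′ on the strand of the gene. Gene coordinates elsewhere in the text come from the GENCODE M21 annotation, where some starts differ. On the minus strand, *Atp6v1a* starts there at 44139705 and *Ctsd* at 142388038. The TFEB site cores shown for both therefore lie inside the GENCODE genes, as does part of the *Gla* stretch. *Atp6v1a* and *Gla* are shown because they carry the site core and were higher in loaded cells, *Ctsd* because it carries the core with little difference, and *Atp6ap2* because it had the smallest p-value among the 41 genes and no match. Capitals mark matches to TCACGTGA (the TFEB site core), CACGTG (the E-box core, which lies inside the TFEB site core) or TGACNNNGC (the antioxidant response core), on either strand.
Atp6v1a, chr16:44139260-44139509, minus strand: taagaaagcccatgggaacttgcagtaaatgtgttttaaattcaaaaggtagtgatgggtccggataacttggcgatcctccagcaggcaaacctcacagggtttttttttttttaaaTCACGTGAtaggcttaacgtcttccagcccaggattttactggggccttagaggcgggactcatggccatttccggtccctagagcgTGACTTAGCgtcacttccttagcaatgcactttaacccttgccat
Gla, chrX:134601006-134601255, minus strand: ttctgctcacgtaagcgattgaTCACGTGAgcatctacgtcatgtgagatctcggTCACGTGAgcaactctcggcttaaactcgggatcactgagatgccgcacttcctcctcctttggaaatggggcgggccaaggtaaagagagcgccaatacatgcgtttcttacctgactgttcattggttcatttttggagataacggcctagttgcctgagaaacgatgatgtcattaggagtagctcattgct
Ctsd, chr7:142387828-142388077, minus strand: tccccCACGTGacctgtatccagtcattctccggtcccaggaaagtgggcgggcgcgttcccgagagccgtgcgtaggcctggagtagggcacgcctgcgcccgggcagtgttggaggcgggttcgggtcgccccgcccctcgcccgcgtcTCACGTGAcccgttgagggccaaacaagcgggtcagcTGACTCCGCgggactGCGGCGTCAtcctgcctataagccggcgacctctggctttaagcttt
Atp6ap2, chrX:12587509-12587758, plus strand: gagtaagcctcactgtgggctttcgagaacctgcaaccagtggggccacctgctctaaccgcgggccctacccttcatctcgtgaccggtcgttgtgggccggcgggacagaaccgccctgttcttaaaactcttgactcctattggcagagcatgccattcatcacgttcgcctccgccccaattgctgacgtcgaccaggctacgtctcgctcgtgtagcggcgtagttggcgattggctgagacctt

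The TFEB site core began 132 bases before the RefSeq start in *Atp6v1a* and 99 bases before it in *Ctsd*. *Gla* had 2 copies, which began 228 and 195 bases before the start. In the whole windows of 300 bases, which also hold the first 50 bases after the RefSeq start, 43 windows were found for 33 of the 41 genes. The TFEB site core was in 8 of these windows (18.6%), compared with 1.74% of the windows of all tested genes and 0.974% of all 32851 windows. The 8 genes were *Atp6v0d1*, *Atp6v0e*, *Atp6v1a*, *Cln3*, *Ctsa*, *Ctsd*, *Gla* and *Mcoln1*. The shorter E-box core was in 13 of 43 windows (30.2%), against 9.74% for the tested genes and 7.15% for all windows. The antioxidant response core was in 11 of 43 windows (25.6%), against 14.3% and 12.4%. None of the 8 windows of *Tfeb*, *Tfe3* and *Mitf* held the E-box core, which says only that these letters are not in those windows. A match is a description of the sequence and was not tested as a binding site.

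**Figure D1:**
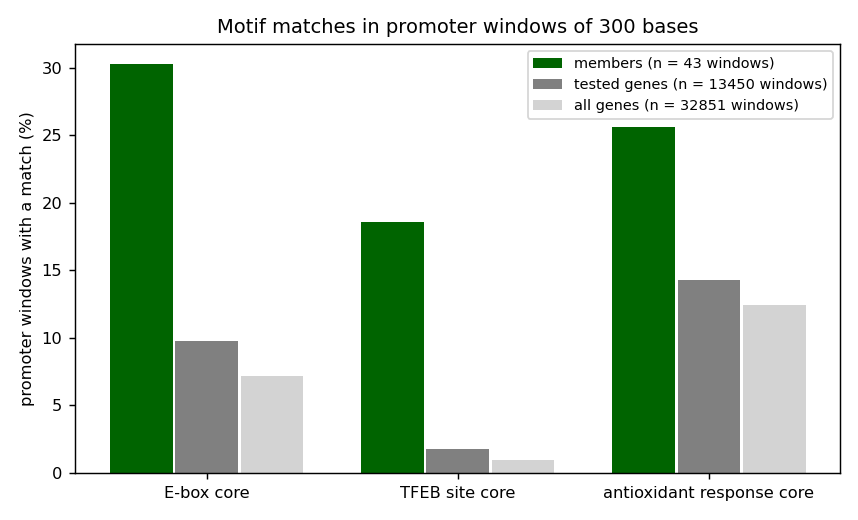
Share of promoter windows with a match on either strand (vertical axis, %) for 3 motifs, in the 43 windows of the pump and lysosome genes (green), the windows of all tested genes (dark grey) and all windows of the table (light grey). The TFEB site core stood at 18.6% in the pump and lysosome genes and at 0.974% in all windows.

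In the 8 genes with the TFEB site core the median log2 fold change between loaded and unloaded cells was 0.14, with a range from 0.01 to 0.74 and all 8 above 0. In the 25 genes with a window but no such core it was 0.11, with a range from −0.19 to 0.73 and 21 above 0. In neither set are the 8 genes with no window, *Atp6v0a2*, *Atp6v1b2*, *Atp6v1c1*, *Atp6v1g1*, *Atp6v1h*, *Ctsb*, *Asah1* and *Npc1*. Their log2 fold changes ranged from −0.24 (*Atp6v0a2*) to 0.46 (*Atp6v1b2*). Whether genes with and without the core differ was not tested.

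Library totals ranged from 28941994 to 32185693 counts, and a floor of 3 counts lay between 0.0929 and 0.103 CPM (counts relative to library size, scaled by edgeR's TMM factors), which covers counting error only. The biological coefficient of variation over all genes was 16.6%. Osteocyte markers were present in part. *Pdpn* stood at 143 and 151 CPM in unloaded cells and 215 and 228 CPM in loaded cells, and *Gja1* and *Phex* were also expressed. *Dmp1* stayed between 0.396 and 0.482 CPM, *Mepe* had no counts, and *Sost*, *Fgf23* and *Bglap* had at most 9 counts in any library. Of 12 macrophage and osteoclast markers, 3 were tested, and their summed level of 1626 and 1638 CPM in unloaded cells and 1599 and 1606 CPM in loaded cells was almost all *Csf1r*. The libraries of all 3 were lower with loading without overlap, against 24.5% of all tested genes. For *Csf1r* the difference was small, with 1572 and 1582 CPM without and 1557 and 1561 CPM with loading (log2 fold change −0.02). *Lyz2* stayed between 1.07 and 1.65 CPM. *Cd14* had 52.5 and 54.7 CPM without and 41.6 and 43.9 CPM with loading (log2 fold change −0.33, edgeR adjusted p = 0.204). The part of these markers in the results was not tested. *Ocstamp*, *Dcstamp*, *Oscar* and *Fcgr1* had no counts, and *Ptprc*, *Adgre1*, *Itgam*, *Calcr* and *Tnfrsf11a* had at most 6 in any library.

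Most of the 41 genes stood slightly higher with loading. The log2 fold change was above 0 in 36 of 41 genes (87.8%), compared with 48.5% of all tested genes, and its median was 0.15 compared with −0.01 over all tested genes. By edgeR's quasi-likelihood test at an adjusted p under 0.01, none of the 41 genes was called higher and none lower, against 0.0123% of all tested genes higher and 0.0861% lower. At an adjusted p under 0.05, 1 gene was called higher, *Atp6ap2*, and none lower, against 0.338% and 0.565%. At an unadjusted p under 0.05, 12 genes (29.3%) were higher and none lower, against 6.88% and 7.46%. DESeq2 at an adjusted p under 0.01 called 6 genes higher and none lower, against 1.36% and 1.55% of the genes to which it gave an adjusted p. These were *Atp6ap2*, *Atp6v1a*, *Atp6v1b2*, *Atp6v1c1*, *Ctsl* and *Gla*. Both loaded libraries lay above both unloaded libraries in 25 genes (61.0%) and below them in 2 genes, against 22.1% and 24.5% of all tested genes. In RNA from whole cultures, fewer cells of a type and less RNA per cell cannot be told apart.

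**Figure D2:**
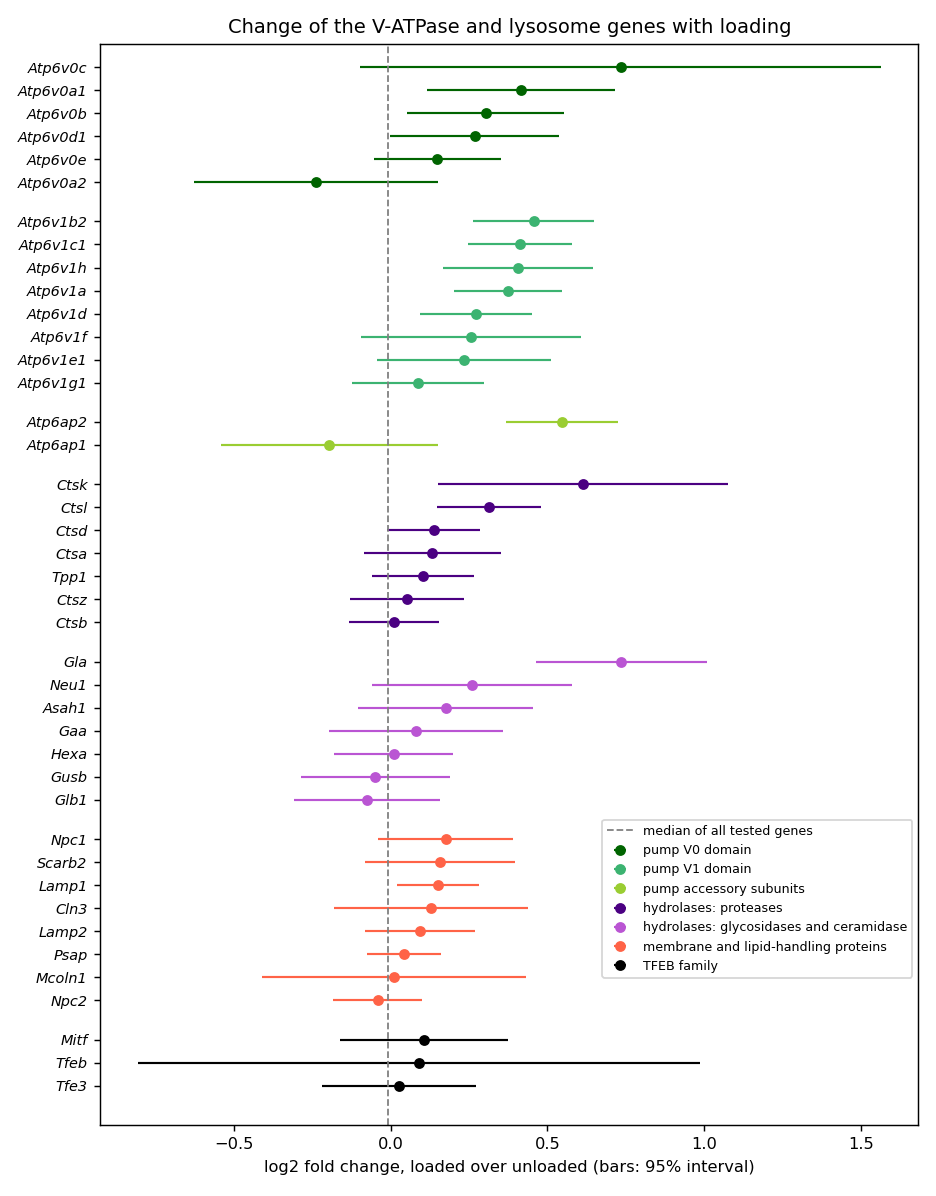
Log2 fold change of loaded over unloaded cells (horizontal axis) for each of the 41 genes, grouped by role, with 95% intervals from edgeR's quasi-likelihood fit as bars and the median of all tested genes as a dashed line. The V1 genes all lie to the right of 0, with a median of 0.32, whereas the TFEB family has a median of 0.09.

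By role, the median log2 fold change was 0.29 for the 16 pump genes (1.22-fold), 0.12 for the 14 hydrolases, 0.11 for the 8 membrane and lipid-handling proteins and 0.09 for the 3 listed genes of the TFEB family. The pump genes summed to 1462 and 1373 CPM in unloaded cells and to 1732 and 1740 CPM in loaded cells. The hydrolases summed to 2018 and 2080 CPM in unloaded cells and to 2212 and 2288 CPM in loaded cells. The membrane and lipid-handling genes summed to 2373 and 2370 CPM in unloaded cells and to 2492 and 2515 CPM in loaded cells. Loaded and unloaded sums did not overlap for any of these groups. The TFEB family summed to 63.6 and 68.4 CPM in unloaded cells and to 67.4 and 70.0 CPM in loaded cells, and these sums overlapped. Both loaded libraries lay above both unloaded ones in 12 of 16 pump genes, 7 of 14 hydrolases, 5 of 8 membrane and lipid-handling genes and 1 of 3 genes of the TFEB family, against 22.1% of all tested genes, and below them in 1 hydrolase and 1 membrane gene, against 24.5%. Whether the groups of genes differ from each other was not tested.

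In the V1 domain, where ATP is split, all 8 genes had a log2 fold change above 0, against 48.5% of all tested genes, with a median of 0.32. At an unadjusted p under 0.05 by edgeR, 5 of 8 were higher and none lower, against 6.88% and 7.46% of all tested genes. *Atp6v1a* encodes the catalytic A subunit (chromosome 16, 44085402 to 44139705). It stood at 231 and 217 CPM in unloaded cells and at 279 and 301 CPM in loaded cells, so that the groups did not overlap. Its log2 fold change was 0.37 ± 0.07 (SE, 2 libraries per group), with an adjusted p of 0.0975 by edgeR and 0.00112 by DESeq2.

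*Atp6v1b2* encodes the B subunit, which alternates with A in the ring that splits ATP. Its libraries stood at 83.5 and 78.5 CPM without loading and at 112 and 110 CPM with loading. The log2 fold change was 0.46 ± 0.08 (SE), with an adjusted p of 0.0784 by edgeR and 0.000989 by DESeq2. *Atp6v1c1* encodes the C subunit, which helps to hold V1 and V0 together. It was measured at 121 and 116 CPM without loading and at 159 and 156 CPM with loading, again without overlap. This was a log2 fold change of 0.41 ± 0.07 (SE), with an adjusted p of 0.0689 by edgeR and 0.00084 by DESeq2.

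*Atp6v1g1*, a peripheral stalk subunit, did not follow. It stood at 105 and 115 CPM in unloaded cells and at 121 and 112 CPM in loaded cells, so that the groups overlapped, with a log2 fold change of 0.09 (95% interval −0.12 to 0.30). Of the V1 genes outside the rule for named genes, *Atp6v1h*, whose product restrains the pump when V1 is free, is given because its values stood out once seen. It had 52.7 and 53.7 CPM without and 74.2 and 66.8 CPM with loading, a difference of 0.41 on the log2 scale, with an edgeR adjusted p of 0.148. The log2 fold changes of the other 3 V1 genes, *Atp6v1d*, *Atp6v1e1* and *Atp6v1f*, lay between 0.23 and 0.27.

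**Figure D3:**
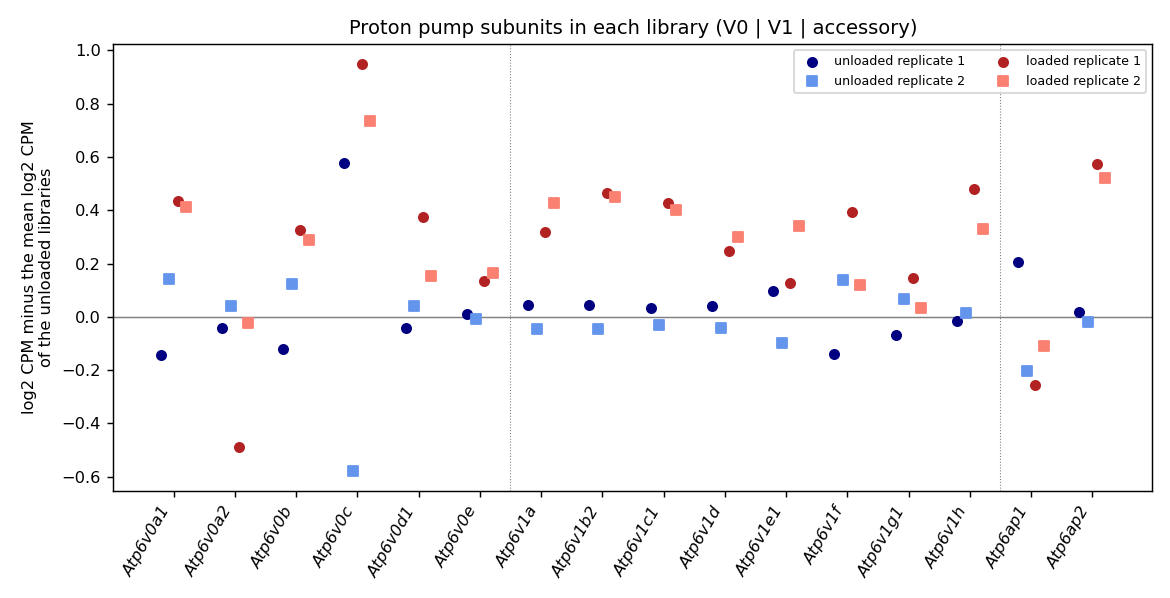
Level of each of the 16 pump genes in each library, as log2 CPM minus the mean log2 CPM of the 2 unloaded libraries (vertical axis), with unloaded libraries in blue and loaded libraries in red. Both loaded libraries lie above both unloaded ones in 12 of the 16 genes, and *Atp6v0c* shows the widest gap between the unloaded libraries.

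In the V0 domain, 5 of 6 genes had a log2 fold change above 0, against 48.5% of all tested genes, with a median of 0.29. DESeq2 called none of them, against 1.36% higher and 1.55% lower of the genes to which it gave an adjusted p. *Atp6v0a1* encodes the a1 form of the a subunit, which lines the path of the protons. It stood at 34.3 and 41.9 CPM without loading and at 51.2 and 50.5 CPM with loading. The difference on the log2 scale was 0.42 ± 0.12 (SE), with an edgeR adjusted p of 0.208. *Atp6v0b*, a proteolipid of the rotor ring, had 77.5 and 91.8 CPM without and 106 and 103 CPM with loading. The corresponding log2 fold change was 0.30 ± 0.10 (SE), with an edgeR adjusted p of 0.272.

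Another 2 genes of V0 are given because of their values. *Atp6v0c*, the main proteolipid of the ring, had the largest log2 fold change of the pump genes, 0.73 ± 0.34 (SE), with an edgeR adjusted p of 0.400. Its unloaded libraries stood far apart at 100.5 and 45.1 CPM, beside 130 and 112 CPM in loaded cells. Without unloaded replicate 2 the log2 fold change was 0.27. Without unloaded replicate 1 it was 1.43, with an edgeR adjusted p of 0.00496 in a fit where the 1 unloaded library left is assumed to vary like the others. Reads of *Atp6v0c* can also be split with its processed pseudogene *Atp6v0c-ps2*, which had between 1956 and 3109 counts per library, and the sum of both genes differed by 0.58 on the log2 scale. *Atp6v0a2*, the a2 form, went the other way with 68.7 and 72.7 CPM without and 50.4 and 69.5 CPM with loading. These groups overlapped, with a log2 fold change of −0.24 (95% interval −0.63 to 0.15).

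The a subunit of the pump has several forms, and the form with the highest level per length, a3, is encoded by *Tcirg1*, which is not on the list of 41. *Tcirg1* is best known as the a subunit of the osteoclast pump. It stood at 148 and 146 CPM in unloaded cells and at 112 and 101 CPM in loaded cells, with a log2 fold change of −0.46 ± 0.08 (SE). Its adjusted p was 0.0797 by edgeR and 0.000693 by DESeq2. As a share of the summed level per length (TPM) of the a subunit genes, *Tcirg1* made up 67.4% and 64.9% in unloaded cells and 61.3% and 54.9% in loaded cells. *Atp6v0a1* made up 11.0% and 13.0% without loading and 19.7% and 19.2% with loading. The share of *Atp6v0a2* overlapped between the groups, at 21.5% and 22.1% without and 18.8% and 25.8% with loading. *Atp6v0a4* had at most 11 counts in any library.

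**Figure D4:**
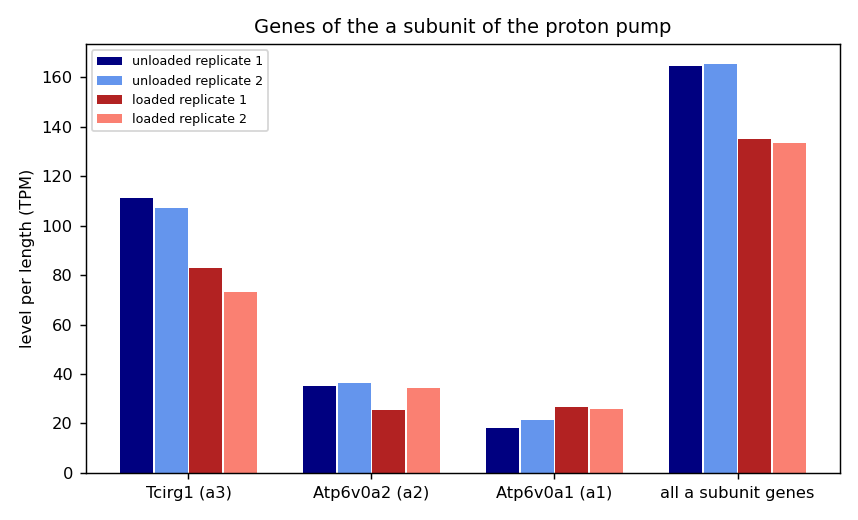
Level per length (TPM, vertical axis) of the 3 expressed a subunit genes and of the sum of all a subunit genes in each library, with unloaded libraries in blue and loaded libraries in red. The sum stood at 164.7 and 165.2 TPM in unloaded cells and at 135.0 and 133.4 TPM in loaded cells, while *Atp6v0a1* was higher in both loaded libraries.

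The B, C and d subunits came almost wholly from 1 gene each. *Atp6v1b2* gave at least 99.5% of the B subunit level, *Atp6v1c1* at least 99.7% of the C subunit level and *Atp6v0d1* at least 99.8% of the d subunit level per length in every library. The kidney and osteoclast forms *Atp6v1b1* and *Atp6v0d2* had at most 9 and 5 counts. For the e subunit, *Atp6v0e2* gave between 16.5% and 20.9%.

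The accessory subunits differed in direction. *Atp6ap2*, also known as the prorenin receptor and needed for assembly of the pump (chromosome X, 12587801 to 12617049), had 90.4 and 88.1 CPM without loading and 133 and 128 CPM with loading. The gap between the groups was many times that between replicates, which was 0.04 in unloaded and 0.05 in loaded cells on the log2 scale. Its log2 fold change was 0.55 ± 0.07 (SE), a 1.46-fold difference (95% interval 1.29 to 1.65), with an adjusted p of 0.0386 by edgeR and 8.48e-06 by DESeq2. *Atp6ap1*, which encodes the subunit Ac45, had 140 and 105 CPM without and 102 and 113 CPM with loading. Its groups overlapped, and its log2 fold change of −0.19 (95% interval −0.54 to 0.15) became 0.03 without unloaded replicate 1.

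Among the hydrolases, 12 of 14 genes had a log2 fold change above 0, against 48.5% of all tested genes. Only *Gla*, *Ctsl* and *Ctsk* had an unadjusted p under 0.05 by edgeR. All were higher, against 6.88% of all tested genes higher and 7.46% lower. *Gla* encodes alpha-galactosidase A, which removes galactose from glycolipids (chromosome X, 134588149 to 134601125). It had 19.7 and 19.8 CPM in unloaded cells and 35.0 and 30.8 CPM in loaded cells. With a log2 fold change of 0.74 ± 0.11 (SE), a 1.67-fold difference (95% interval 1.38 to 2.01), its adjusted p was 0.0557 by edgeR and 0.00142 by DESeq2. This was the largest log2 fold change of the 41 genes.

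*Ctsl*, the endoprotease cathepsin L, had 354 and 366 CPM without and 426 and 468 CPM with loading. The log2 fold change of cathepsin L was 0.31 ± 0.07 (SE), with an adjusted p of 0.129 by edgeR and 0.00565 by DESeq2. Its exons share 395 bases on the same strand with the processed pseudogene *Gm49230*, which had at most 2 counts, and 1742 bases on the opposite strand. Whether reads of the opposite strand were counted is not known. *Ctsk*, cathepsin K, is the main collagenase of osteoclasts and was low in these cells, at 5.13 and 4.85 CPM without and 7.93 and 7.34 CPM with loading. Its groups did not overlap, and its log2 fold change was 0.61 ± 0.19 (SE), with an edgeR adjusted p of 0.228.

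The most abundant hydrolase per length, *Ctsd* (cathepsin D), differed less. It had 481 and 510 CPM without and 532 and 558 CPM with loading, with a log2 fold change of 0.14 and an edgeR adjusted p of 0.382. *Ctsd* shares 808 bases of exon on the same strand with the gene model *Gm49369*, which had at most 107 counts. *Hexa*, the alpha subunit of beta-hexosaminidase, had 95.6 and 93.2 CPM without and 92.8 and 97.3 CPM with loading, a log2 fold change of 0.01 (95% interval −0.18 to 0.20) that was −0.010 when libraries were scaled by their totals alone. *Neu1*, a sialidase, had 15.4 and 15.1 CPM without and 19.4 and 17.1 CPM with loading, with an edgeR adjusted p of 0.435. The other 8 hydrolases had log2 fold changes from −0.08 (*Glb1*) to 0.18 (*Asah1*).

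The membrane and lipid-handling proteins had small differences, with log2 fold changes from −0.04 (*Npc2*) to 0.18 (*Npc1*). *Lamp1*, a main glycoprotein of the lysosome membrane, had 711 and 725 CPM without and 779 and 816 CPM with loading. Its log2 fold change was 0.15 ± 0.05 (SE), with an edgeR adjusted p of 0.291. *Psap*, the precursor of the saposins and the highest of the 41 genes per length, had 969 and 965 CPM without and 1001 and 990 CPM with loading, a log2 fold change of 0.04 (95% interval −0.08 to 0.16). *Npc1*, which exports cholesterol from the lysosome, had 60.0 and 61.5 CPM without and 70.2 and 67.0 CPM with loading, with an edgeR adjusted p of 0.436. *Mcoln1*, the calcium channel TRPML1 and given here because of its value, had a log2 fold change of 0.01 with overlapping groups.

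The TFEB family showed no difference that passed any of the thresholds. *Tfeb* was the lowest of the 41 genes per length, with a mean of 2.94 TPM, and had 3.34 and 6.20 CPM in unloaded cells and 6.13 and 4.02 CPM in loaded cells. Its log2 fold change of 0.09 had a wide 95% interval, from −0.81 to 0.99, which takes in differences of the size of those in the pump genes. Its replicates lay 0.89 apart in unloaded cells and 0.61 apart in loaded cells on the log2 scale. *Tfe3* had 39.9 and 40.6 CPM without and 39.0 and 43.1 CPM with loading, with a log2 fold change of 0.03 (95% interval −0.22 to 0.27). *Mitf* had 20.3 and 21.6 CPM without and 22.3 and 22.8 CPM with loading, with a log2 fold change of 0.11 (95% interval −0.16 to 0.37). The family's median of 0.09 was 0.02 without unloaded replicate 1. These are mRNA levels, and where the proteins were in the cell was not measured here.

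A list of 23 genes linked to control of the TFEB family held mTORC1, folliculin, Rag and Ragulator genes, calcineurin genes, *Zkscan3* and a further family member, *Tfec*. *Tfec* had no counts. The other 22 were tested, and 15 (68.2%) had a log2 fold change above 0 (median 0.13), against 48.5% of all tested genes. By edgeR at an adjusted p under 0.01 none was called, against 0.0123% of all tested genes higher and 0.0861% lower. At an unadjusted p under 0.05, 7 were higher and 1 lower, against 6.88% and 7.46% of all tested genes. The 1 lower gene was *Zkscan3*, with a log2 fold change of −0.39. DESeq2 called 3 higher and none lower, against 1.36% and 1.55%. *Fnip2*, a partner of folliculin in the complex that switches RagC and RagD, had 72.5 and 65.2 CPM without and 118 and 113 CPM with loading. Its log2 fold change was 0.75 ± 0.09 (SE), with an adjusted p of 0.0348 by edgeR and 9.15e-09 by DESeq2. *Rragc*, which encodes RagC itself, had 153 and 159 CPM without and 209 and 198 CPM with loading, with an adjusted p of 0.0843 by edgeR and 0.00118 by DESeq2. *Lamtor3*, a part of the Ragulator complex that anchors the Rag proteins, had 62.2 and 57.7 CPM without and 87.2 and 85.1 CPM with loading, with an adjusted p of 0.0774 by edgeR and 0.000499 by DESeq2. Both loaded libraries lay above both unloaded ones in 11 of the 22 tested genes and below them in 4, against 22.1% and 24.5% of all tested genes. *Fnip2*, *Rragc* and *Lamtor3* were among the 11. They were named for their small p-values, so their lack of overlap is not a further result. *Mitf* also lay without overlap, whereas *Tfeb* and *Tfe3* overlapped.

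**Figure D5:**
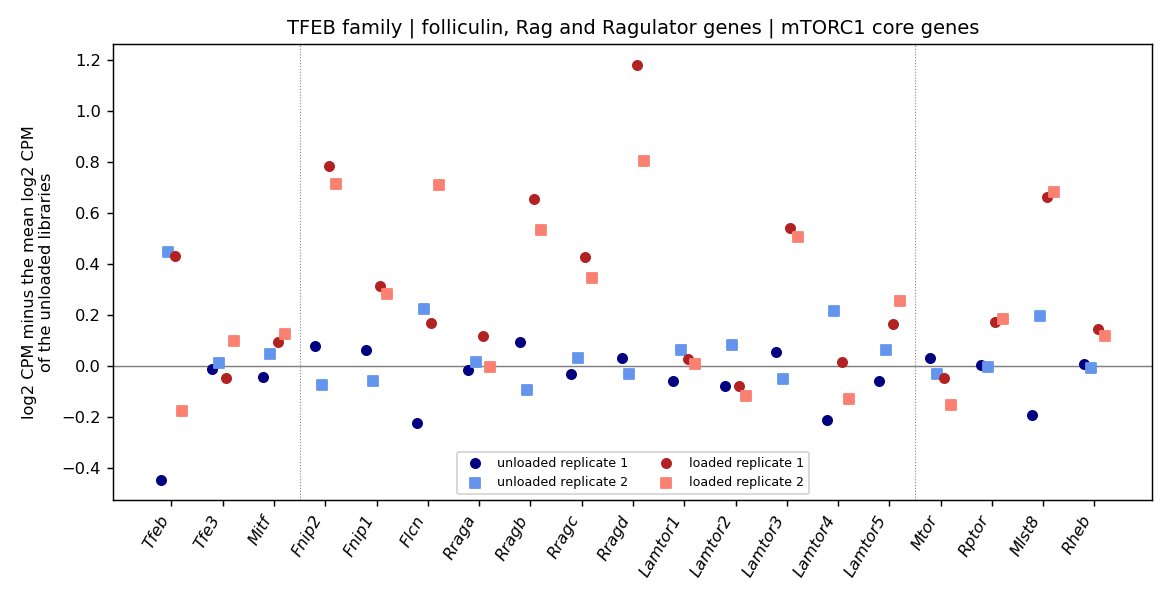
Level of the TFEB family, of folliculin, Rag and Ragulator genes and of mTORC1 core genes in each library, as log2 CPM minus the mean log2 CPM of the 2 unloaded libraries (vertical axis), with unloaded libraries in blue and loaded libraries in red. *Fnip2*, *Rragc* and *Lamtor3*, which had the smallest p-values of their list, are higher in both loaded libraries. So is *Mitf*, by a smaller gap, whereas the libraries of *Tfeb* and *Tfe3* overlap.

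The median of each wider list around the lysosome lay below the 0.29 of the listed pump genes. Of 16 other pump subunits and assembly factors, 10 were tested, 5 of them above 0, with a median of 0.01. DESeq2 called 1 of them higher and 1 lower, against 1.36% and 1.55% of the genes to which it gave an adjusted p. Besides *Tcirg1*, DESeq2 called *Wdr7*, a protein of the pump's assembly machinery, with 61.3 and 57.2 CPM without and 81.1 and 79.7 CPM with loading (DESeq2 adjusted p = 0.00728, edgeR adjusted p = 0.113). *Tmem199*, an assembly factor in the endoplasmic reticulum, differed by 0.45 on the log2 scale (edgeR adjusted p = 0.189). Of 31 other lysosomal hydrolases, 26 were tested, 12 of them above 0, with a median of −0.01. DESeq2 called none of them, against the same 1.36% higher and 1.55% lower. At an unadjusted p under 0.05, 4 were higher and 2 lower by edgeR, against 6.88% and 7.46% of all tested genes, so that the count of lower genes was near the background. Among the smallest p-values were those of *Ctso* (cathepsin O), with a log2 fold change of −0.69, and of *Dnase2a*, an acid nuclease, with 1.22. *Ctso* had 9.91 and 11.0 CPM without and 6.32 and 6.64 CPM with loading, and *Dnase2a* had 3.92 and 6.99 CPM without and 15.2 and 10.3 CPM with loading.

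Of 26 other membrane, transport and sorting proteins, 23 were tested, 15 of them above 0, with a median of 0.11. DESeq2 called none of them, against 1.36% higher and 1.55% lower of the genes to which it gave an adjusted p. By edgeR's unadjusted p under 0.05, 4 were higher and 1 lower, against the same 6.88% and 7.46%. *Ostm1*, a partner of the lysosomal chloride exchanger, had a log2 fold change of 0.37. *Igf2r*, the mannose 6-phosphate receptor that carries hydrolases to the lysosome, had 0.23, and the tetraspanin *Cd63* had 0.21. All 25 autophagy genes on the list were tested, 12 of them above 0 and 13 below. By edgeR's unadjusted p under 0.05, 3 were higher and 1 lower, against 6.88% and 7.46%. The 1 lower gene was *Stx17*, with a log2 fold change of −0.31. DESeq2 called 1 higher and none lower, against 1.36% and 1.55% of the genes to which it gave an adjusted p. This was *Sqstm1*, the autophagy receptor p62, with 456 and 486 CPM without and 590 and 586 CPM with loading (log2 fold change 0.32, DESeq2 adjusted p = 0.00148, edgeR adjusted p = 0.0928). *Vps33a* and *Vps18*, which tether vesicles to the lysosome, had log2 fold changes of 0.36 and 0.37.

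A list of 10 genes of bone resorption mixed genes of acid secretion with proteases, among them the matrix metalloproteinases *Mmp9*, *Mmp13* and *Mmp14*. Of these 10, 7 were tested, and their directions were split, with 4 above 0, 3 below and a median of 0.20. Above 0 besides *Ctsk* were *Ostm1* (0.37), *Mmp14* (0.21) and *Clcn7* (0.20), given so that all tested genes appear. DESeq2 called 3 lower and none higher, against 1.55% and 1.36% of all genes with an adjusted p. *Mmp9*, a gelatinase, had 28.6 and 27.8 CPM without and 11.8 and 11.0 CPM with loading, a log2 fold change of −1.31 ± 0.12 (SE), with an adjusted p of 0.0137 by edgeR and 1.18e-08 by DESeq2. *Mmp13*, a collagenase, had 55.9 and 50.2 CPM without and 34.0 and 31.2 CPM with loading, with an adjusted p of 0.0575 by edgeR and 0.000205 by DESeq2. *Tcirg1*, the third of them, is described above, and *Ctsk* had the highest log2 fold change of the list. *Acp5*, the tartrate-resistant acid phosphatase of osteoclasts, had no counts in 3 libraries and 5 counts in loaded replicate 1.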

How the data were processed

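RNA was measured in 2 unloaded and 2 loaded MLO-Y4 libraries. Per the labels and the methods of the study, the authors depleted ribosomal RNA, mapped trimmed reads to mm10 with HISAT2 2.1.0, assembled transcripts with StringTie 1.3.5 and wrote gene counts with prepDE. The deposited values are raw counts. Such counts derive from assembled coverage, so near-identical copies can share reads. Strandedness and the annotation release are not given in the sources used here. All 55450 identifiers are in GENCODE M21 (GRCm38), which gave coordinates and exon lengths.

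Counts were filtered with filterByExpr (count minimum 10), scaled by TMM and compared by quasi-likelihood F tests (edgeR 4.0.16, R 4.3.3), with Benjamini-Hochberg adjustment over 16269 genes. The study used DESeq2 and an adjusted p under 0.01, and here that threshold was kept for edgeR and DESeq2 1.42.0 was run as an alternative. Further alternatives were other scalings and filters, an adjusted p under 0.05, a replicate block and leaving out each library. The edgeR procedure was tested on simulated data. TPM was computed as counts per kilobase of exon, scaled to a fixed sum.

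The members and all gene lists were chosen with earlier results of these data known. Genes named by rule were the TFEB family, members with an adjusted p under 0.05 by edgeR or under 0.01 by DESeq2, in each role group the 2 smallest p-values and the highest level per length, and at most 3 genes by smallest p from each other list. Other genes are marked where they appear. The values of 1 gene that the rule names are not reported here. ChIP-seq, protein and qPCR data were not analysed here.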

Additional observations from a re-analysis of the deposited data

How the results depend on the processing

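The number of the 41 genes called higher was 0 by edgeR, 6 by DESeq2, 1 at an adjusted p under 0.05 and between 0 and 1 when 1 library was left out, the 1 being *Atp6v0c* without unloaded replicate 1. No setting tried called a gene lower. The pump median of 0.29 lay between 0.31 and 0.35 with a library left out, where arms with 1 library were assumed to vary like the others. The hydrolase median lay between 0.092 and 0.13 and was 0.10 with library totals alone, the membrane and lipid-handling median lay between 0.077 and 0.15 and was 0.093 with library totals, and the TFEB family's lay between 0.022 and 0.15. Of 220 alternative values for the 20 genes named by the rule, 207 kept direction and side of the threshold, 6 passed it, all with DESeq2, and 7 changed sign, in 4 genes. With a library left out, *Atp6ap1* ranged from −0.39 to 0.031, *Hexa* from −0.025 to 0.046, *Tfe3* from −0.049 to 0.10 and *Tfeb* from −0.28 to 0.60, and *Hexa* was −0.010 with library totals. The cause was not tested. Libraries of the same replicate number did not deviate together (correlation −0.06). A fit blocked on the replicate number called 0 genes higher and gave 0 an adjusted p under 0.05. It gave 12 genes an unadjusted p under 0.05 (*Atp6v0c* in and *Lamp1* out). The share of all tested genes in the blocked fit is not given here, so the 12 cannot be set against a background. Among pump genes 14 of 16 stayed above 0 whichever library was left out, compared with 8 of 14 hydrolases. The same share over all tested genes is not given here, and these fits share libraries. Whether pump genes and hydrolases differ in this was not tested. A difference in *Tfeb* is limited by the gaps between its replicates, 0.89 and 0.61 on the log2 scale.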
